A study of Mus musculus with 6 samples.

Results

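The mRNAs of the mouse Toll-like receptors other than Tlr4 were compared between control and PGAM5 KD macrophages after LPS. The 10 genes, of 54532 listed in each library, were taken by their gene symbol: Tlr1, Tlr2, Tlr6 and Cd180, which act at the cell surface, Tlr3, Tlr7, Tlr8, Tlr9 and Tlr13, which act in endosomes, and Unc93b1, the chaperone that carries the endosomal receptors there. All cells were iBMDMs, a macrophage line from the bone marrow of WT C57Bl/6 mice that v-raf- and v-myc-carrying retroviruses had immortalized. Lentiviruses gave control cells a control shRNA (shControl) and PGAM5 KD cells an shRNA against Pgam5 (shPGAM5), a mitochondrial phosphatase, and both groups received LPS at 100 ng/ml for 4 hours. Each group had 3 libraries of poly(A) RNA. The sources do not say whether replicates were separate infections or cultures, so p-values measure the spread between these libraries, which may be technical. No unstimulated library was analysed here, so the values compare LPS-treated cells and measure no induction. Each group has its own shRNA, and an effect of the knockdown cannot be told apart from other differences between the lines.

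Toll-like receptors recognize microbial molecules through leucine-rich repeats and signal through a cytoplasmic TIR domain. Tlr2 pairs with Tlr1 or Tlr6 to sense bacterial lipopeptides, whereas the endosomal receptors sense nucleic acids: double-stranded RNA for Tlr3, single-stranded RNA for Tlr7, CpG DNA for Tlr9 and bacterial ribosomal RNA for Tlr13. Cd180 (RP105) resembles Tlr4 outside the cell but lacks a TIR domain, and reaches the surface with its partner Ly86 (MD-1).

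Expression is given as FPKM, fragments scaled to exon length and library depth, so levels of different genes can be compared. The recovered depth was from 18163463 to 24388915 fragments per library, and within each group all pairs of libraries were further apart than sampling noise (chi-square over degrees of freedom of 5.08 to 9.03). Pgam5 was at 12.97 to 17.1 FPKM in control and 4.33 to 5.75 FPKM in PGAM5 KD libraries (log2 fold change -1.40, SE 0.13, adjusted p = 0.000358 from limma). The macrophage markers Spi1, Cd68, Csf1r and Lyz2 were above 140 FPKM in every library, Adgre1, Fcgr1 and Itgam were from 2.11 to 15.7 FPKM, and Mertk was listed at 0 in all. Summed over 8 macrophage markers the level was 2521 to 2592 FPKM in control and 1992 to 2038 FPKM in PGAM5 KD libraries, a sum carried mostly by Lyz2 (means of 1666 and 1265 FPKM). Of the 7 tested, Adgre1, Fcgr1 and Itgam were higher (means of 7.93, 4.34 and 2.41 FPKM in control and 15.1, 14.1 and 4.46 FPKM in PGAM5 KD libraries), and Lyz2, Csf1r and Cd68 were lower. The part of these differences in the receptor values was not tested. B cells and plasmacytoid dendritic cells also express Tlr7, Tlr9 or Cd180, but their summed markers reached at most 0.283 and 0.153 FPKM in any library, with Ms4a1 at 0 throughout. The summed markers of conventional dendritic cells, neutrophils and fibroblasts reached at most 0.547, 0.328 and 0.0168 FPKM. Those of T cells reached 3.28 FPKM, nearly all from Lck, with Cd3e and Cd3g at 0.

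In both groups the receptors stood in the same order of level. Tlr2 was the most abundant, with 146.6 ± 4.05 FPKM in control cells (SD, n = 3), followed by Unc93b1 (81.7 ± 2.91), Cd180 (47.1 ± 1.62), Tlr7 (17.2 ± 0.42), Tlr9 (11.3 ± 0.391), Tlr13 (7.63 ± 0.139), Tlr6 (2.63 ± 0.323), Tlr1 (1.14 ± 0.134), Tlr3 (0.308 ± 0.0677) and Tlr8. The libraries of neighbours in this order did not overlap in either group. The coding sequence of Tlr1, Tlr2 and Tlr6 lies in 1 exon, that of Tlr7, Tlr8, Tlr9 and Tlr13 in 2, that of Cd180 in 3, of Tlr3 in 4 and of Unc93b1 in 11 (longest coding transcript in GENCODE M21). Tlr2 was above all but 3.28% of the 10540 genes tested, and Tlr1 was below 93.7% of them.

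Of the 10 genes, 8 had a mean of at least 1 FPKM and were tested with limma on log2(FPKM + 1), with p-values adjusted over all 10540 genes. Expression of Tlr2, Cd180, Tlr9 and Tlr13 was lower in PGAM5 KD cells, expression of Tlr1 was higher, and Tlr6, Tlr7 and Unc93b1 did not pass an adjusted p-value of 0.05. The same test called 14.9% of all genes lower and 16.8% higher, 31.7% in all, against 5 of the 8 here. The share called was larger among genes with a mean of at least 5 FPKM, where 1243 of 7092 were lower and 1528 higher. With that filter 4 of the members were lower and 0 higher. Scaled to TPM, the calls over all genes shifted from 52.9% higher to 32.3% higher. None of the 8 genes reached the absolute log2 fold change above 1 that the study's methods add for differential expression, which 1.32% of all genes did. The constant of 1 compresses folds, and with a constant of 0.1 the same threshold was passed by 154 genes higher and 107 lower, against 83 and 56. In 6 of the 8 the libraries of the groups did not overlap, against 47.1% of all genes. In bulk RNA, fewer cells that express a gene and less RNA per cell cannot be told apart.

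**Figure D1:**
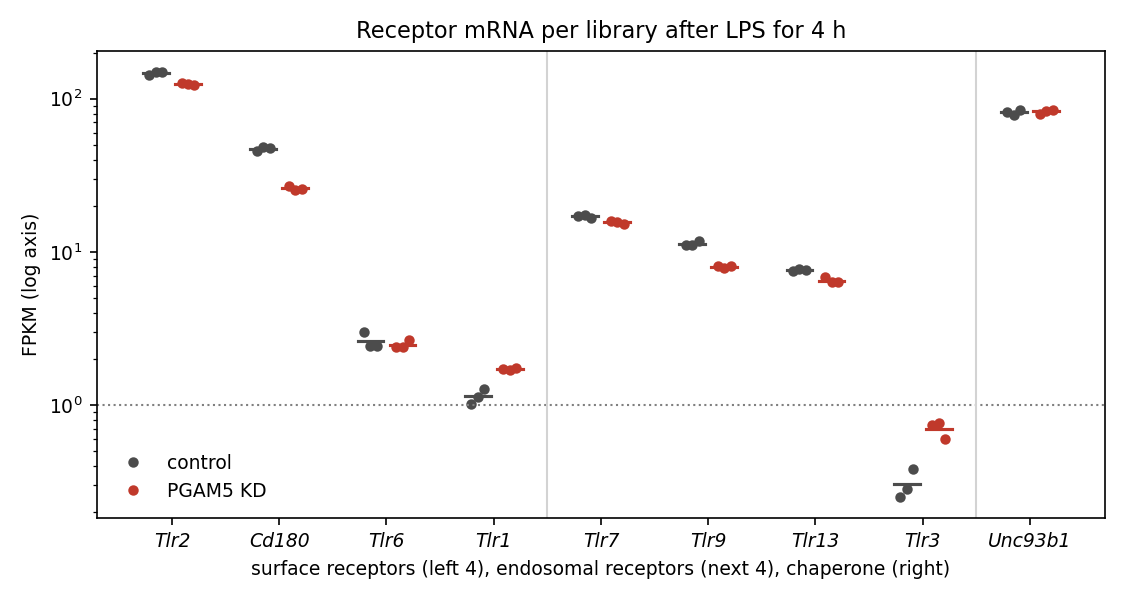
FPKM of 9 genes in each library on a log axis, with control libraries in grey, PGAM5 KD libraries in red and bars at the group means; the dotted line is 1 FPKM, the mean a gene needed to be tested. Cd180 and Tlr9 sit lower and Tlr1 and Tlr3 higher in PGAM5 KD libraries, while Unc93b1 lies between 78.6 and 84.7 FPKM in all 6; Tlr8, with 3 fragments in 1 library, is not drawn.

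Cd180 showed the change of the greatest size among the tested receptors. Cd180 (ENSMUSG00000021624), on the plus strand of chromosome 13 of GRCm38 from 102693558 to 102739629, had 45.2, 48.1 and 48.0 FPKM in control libraries 1, 2 and 3 and 26.9, 25.5 and 25.6 FPKM in PGAM5 KD libraries 1, 2 and 3. Every PGAM5 KD library was far below every control library, at 55.2% of the control mean. The log2 fold change was -0.83 (SE 0.04, adjusted p = 2.80e-05 from limma), and 2.98% of all genes tested changed by as much in either direction. Between 2092 and 4377 fragments per library stood behind it. The exons of Cd180 share 182 bases with Mast4 on the opposite strand, which had 0.12 FPKM in control and 0.0416 FPKM in PGAM5 KD cells.

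Its partner Ly86, without which little Cd180 reaches the surface, moved the other way. Ly86 had 11.97, 11.7 and 10.9 FPKM in control and 13.8, 13.7 and 12.6 FPKM in PGAM5 KD libraries, a log2 fold change of 0.20 (SE 0.06, adjusted p = 0.0341 from limma). This call was lost with TPM (adjusted p = 0.142 from limma), with quantile normalization (0.0533), and on leaving out any single library except PGAM5 KD replicate 3 (0.0354 without it, and 0.0511 to 0.101 without another). The ratio of Cd180 to Ly86 within a library, which no scaling between libraries can change, was 4.09 ± 0.304 in control and 1.95 ± 0.0833 in PGAM5 KD cells (SD, n = 3). Tlr4, the LPS receptor that Cd180 resembles, averaged 6.82 FPKM in control and 7.41 FPKM in PGAM5 KD libraries (log2 fold change 0.11, 95% confidence interval -0.07 to 0.28, adjusted p = 0.308 from limma). The ratio of Cd180 to Tlr4, chosen after the values were seen, was 6.96 ± 0.850 and 3.52 ± 0.263 (SD, n = 3). Libraries of the groups did not overlap in either ratio (exact two-sided permutation p = 0.1 for each, the smallest that 3 libraries against 3 allow, and 0.115 adjusted over the 15 shares and ratios computed).

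Tlr2, the common partner of the lipopeptide receptors, was lower by a smaller amount. Tlr2 (ENSMUSG00000027995; chromosome 3, 83836272 to 83841767, minus strand) was measured at 141.9, 148.5 and 149.3 FPKM in control and 126.3, 124.0 and 123.5 FPKM in PGAM5 KD libraries. All PGAM5 KD libraries lay under the lowest control library. The PGAM5 KD mean was 1.18-fold lower, with a log2 fold change of -0.23 (SE 0.03, adjusted p = 0.00201 from limma). Its level gave from 6791 to 9077 fragments per library. A change of this size or more, in either direction, was seen in 32.9% of all genes tested.

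The co-receptors Tlr1 and Tlr6 are neighbours on the minus strand of chromosome 5 and were expressed at a low level. Tlr1 (ENSMUSG00000044827, from 64924679 to 64933563) had 1.02, 1.13 and 1.29 FPKM in control and 1.73, 1.71 and 1.74 FPKM in PGAM5 KD libraries, from 62 to 142 fragments per library. The groups did not overlap, and the PGAM5 KD libraries were close to each other. The log2 fold change was 0.35 (SE 0.10, adjusted p = 0.0376 from limma), which understates a change at this level, since the ratio of the means was 1.51. The call was lost with TPM (adjusted p = 0.067 from limma) and when any single library other than control replicate 3 was left out (0.0795 to 0.1001, against 0.0486 without that replicate).

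Tlr6 (ENSMUSG00000051498, from 64952031 to 64960097) had 3.00, 2.43 and 2.45 FPKM in control and 2.39, 2.41 and 2.65 FPKM in PGAM5 KD libraries. These ranges overlap, and Tlr6 did not pass the test at a log2 fold change of -0.05 (95% confidence interval -0.28 to 0.17, adjusted p = 0.691 from limma). The ratio of Tlr1 to Tlr6, chosen after the values were seen, was 0.443 ± 0.0943 in control and 0.696 ± 0.0350 in PGAM5 KD libraries (SD, n = 3), with no overlap of the libraries (exact permutation p = 0.1). The ratio of Tlr2 to Tlr1 plus Tlr6 was 39.0 ± 3.32 in control and 29.6 ± 1.34 in PGAM5 KD cells (SD, n = 3; exact permutation p = 0.1), so that Tlr2 mRNA was in large excess over its co-receptors in both groups.

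The coding sequences of Tlr1 and Tlr6 are 88.8% identical over 1328 aligned bases, and no other gene resembled one of the 10 by the same rule (at least 85% identity over at least 200 bases). The longest stretch with no difference is shown because a fragment that lies inside it cannot be assigned to either gene. It runs over 229 bases, from coding base 1468 to 1696 of Tlr1 (chr5:64925537-64925765) and from 1507 to 1735 of Tlr6 (chr5:64953828-64954056), both on the minus strand of GRCm38. Capitals mark the shared run and lower case the 20 bases on each side.
Tlr1: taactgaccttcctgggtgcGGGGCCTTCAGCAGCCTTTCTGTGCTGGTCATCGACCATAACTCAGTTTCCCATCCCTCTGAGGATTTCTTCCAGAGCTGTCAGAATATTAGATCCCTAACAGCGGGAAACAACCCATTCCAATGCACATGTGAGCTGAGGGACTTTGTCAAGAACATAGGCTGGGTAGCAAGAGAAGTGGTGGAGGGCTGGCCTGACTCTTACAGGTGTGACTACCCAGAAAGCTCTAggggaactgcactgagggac
Tlr6: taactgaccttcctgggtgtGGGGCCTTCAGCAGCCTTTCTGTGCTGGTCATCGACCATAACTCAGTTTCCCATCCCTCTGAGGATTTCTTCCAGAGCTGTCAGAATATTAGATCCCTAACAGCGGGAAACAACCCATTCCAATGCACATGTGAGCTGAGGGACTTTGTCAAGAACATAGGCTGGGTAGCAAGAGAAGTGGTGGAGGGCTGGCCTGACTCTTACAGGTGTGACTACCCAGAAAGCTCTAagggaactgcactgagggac
Of all windows of 150 bases in the coding sequence of Tlr1, 6.22% occur whole in Tlr6. Fragments counted on both genes together were 265, 259 and 262 in control and 323, 267 and 383 in PGAM5 KD libraries, and Tlr1 held 23.4% to 32.1% of them in control and 37.1% to 39.3% in PGAM5 KD libraries. With both genes summed into 1 feature, the log2 fold change was 0.10 (SE 0.09, adjusted p = 0.431 from limma).

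Among the endosomal receptors, Tlr9 changed most of those tested. Tlr9 (ENSMUSG00000045322; chromosome 9, 106222598 to 106226883, plus strand) was measured at 11.1, 11.1 and 11.8 FPKM in control and 8.14, 7.87 and 8.11 FPKM in PGAM5 KD libraries. The groups were well separated, with the PGAM5 KD mean at 71.0% of the control mean. The log2 fold change was -0.45 (SE 0.05, adjusted p = 0.000711 from limma), from 497 to 799 fragments per library, and 11.3% of all genes changed by as much in either direction.

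Tlr7, Tlr8 and Tlr13 lie on the X chromosome, where 58 of 330 genes tested were higher and 42 (12.7%) lower, against 14.9% lower among all genes, with a median log2 fold change of 0.01. Tlr7 (ENSMUSG00000044583, minus strand, from 167304929 to 167330558) had 17.3, 17.5 and 16.7 FPKM in control and 16.03, 15.8 and 15.3 FPKM in PGAM5 KD libraries. The libraries did not overlap, but the log2 fold change of -0.12 did not pass the threshold (95% confidence interval -0.22 to -0.02, adjusted p = 0.0642 from limma), and it did so with TPM (-0.20, adjusted p = 0.0153) and quantile normalization (-0.14, adjusted p = 0.0386). Tlr13 (ENSMUSG00000033777, plus strand, from 106143204 to 106160493) had 7.495, 7.77 and 7.62 FPKM in control and 6.85, 6.33 and 6.34 FPKM in PGAM5 KD libraries. Each PGAM5 KD value was below each control value, and the log2 fold change was -0.20 (SE 0.05, adjusted p = 0.0277 from limma). Leaving out any single library other than PGAM5 KD replicate 1 removed this call (adjusted p from 0.0594 to 0.0851, against 0.0280 without that replicate).

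Tlr3 and Tlr8 were below the filter. Tlr3 (ENSMUSG00000031639; chromosome 8, 45395665 to 45411080, minus strand) was measured at 0.254, 0.286 and 0.384 FPKM in control and 0.743, 0.761 and 0.598 FPKM in PGAM5 KD libraries. In fragments this is 24, 30 and 39 against 85, 72 and 76. All PGAM5 KD libraries were above all control libraries, by 2.28-fold between the means (exact two-sided permutation p = 0.1). With no filter on low values the adjusted p-value was 0.0286 from limma, and with limma-voom on the recovered fragments, an alternative chosen after seeing the data, the log2 fold change was 1.17 (SE 0.34, adjusted p = 0.0126). The exons of Tlr3 share 381 bases with the antisense gene Gm45542, which was listed at 0 in both groups. Tlr8 (ENSMUSG00000040522), on the X chromosome from 167242696 to 167264329 and a close relative of Tlr7, had 3 fragments in control replicate 2 and 0 in the other 5 libraries. A count of 0 in the library with the fewest fragments allows up to 0.0461 FPKM, so a difference of Tlr8 was not detectable at this depth. These limits cover counting error only.

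Unc93b1 (ENSMUSG00000036908; chromosome 19, 3935186 to 3949340, plus strand) was measured at 82.1, 78.6 and 84.4 FPKM in control and 79.4, 83.5 and 84.7 FPKM in PGAM5 KD libraries. The groups overlapped, with a log2 fold change of 0.01 (95% confidence interval -0.08 to 0.11, adjusted p = 0.817 from limma) that turned negative with TPM and quantile normalization. The endosomal receptors summed to 36.4 ± 0.264 FPKM (SD, n = 3) in control cells, against 30.9 ± 0.735 FPKM with PGAM5 knocked down. The ratio of Unc93b1 to this sum was 2.24 ± 0.0885 and 2.67 ± 0.152 (SD, n = 3; exact permutation p = 0.1, libraries not overlapping). The ratio of Tlr9 to Tlr7, the pair known to compete for this chaperone, was 0.660 ± 0.0392 in control and 0.512 ± 0.0167 in PGAM5 KD cells (SD, n = 3; exact permutation p = 0.1), a ratio chosen after the values were seen.

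**Figure D2:**
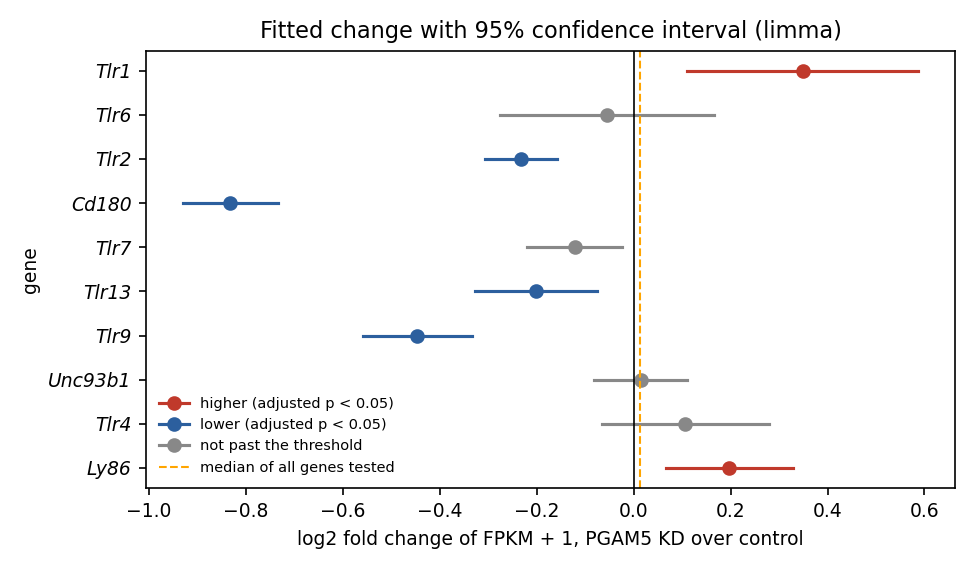
Fitted log2 fold change (x axis, PGAM5 KD over control, FPKM + 1) with its 95% confidence interval for the 8 tested genes and, for comparison, Tlr4 and Ly86; the dashed line is the median of all genes tested, 0.01. Cd180 lies at -0.83 and Tlr9 at -0.45, whereas the intervals of Tlr6, Unc93b1 and Tlr4 cross 0.

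Surface and endosomal receptors were then set side by side. Of the 4 surface receptors, all were tested, 1 was higher and 2 were lower, with a median log2 fold change of -0.14. Of the 5 endosomal receptors, 3 were tested, 0 were higher and 2 were lower, with a median of -0.20. This count and median leave out Tlr8 and Tlr3, which were below the filter. Tlr3 was 2.28-fold higher between the means and was called higher with no filter (adjusted p = 0.0286 from limma), so the 0 depends on the filter. Over all genes tested, 31.7% were called in either direction. The surface median was -0.53 with a mean of at least 5 FPKM, which left only Tlr2 and Cd180 and the endosomal median at -0.20, and -0.22 with TPM, where the endosomal median was -0.30, so the order of the classes depends on the filter. The median over all genes tested was 0.01, and the middle of their distribution ran from -0.14 to 0.16. Both classes held members that were lower and members that did not pass the test. The summed FPKM of Tlr1, Tlr2 and Tlr6 in PGAM5 KD cells was 85.7% of control, and that of the endosomal receptors 84.9%. With Cd180 counted at the surface, the ratio of endosomal to surface mRNA was 0.185 ± 0.00401 in control and 0.200 ± 0.00215 in PGAM5 KD cells (SD, n = 3; exact permutation p = 0.1).

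Within the summed FPKM of all 12 mouse Toll-like receptor genes, Tlr4 included, each receptor's share does not depend on scaling between libraries. The sum itself was 193.6 ± 3.43 FPKM in control and 167.2 ± 1.80 FPKM, or 86.4%, in PGAM5 KD libraries (SD, n = 3; exact permutation p = 0.1), so a share can be higher at a level that is not. Tlr2 held 75.7% ± 0.756 in control and 74.5% ± 0.0946 in PGAM5 KD cells, and Tlr9 held 5.85% ± 0.175 and 4.81% ± 0.0838 (SD, n = 3). Tlr1 held 0.590% ± 0.0606 and 1.03% ± 0.0151, and Tlr3 0.159% ± 0.0329 and 0.419% ± 0.0511 (SD, n = 3). The share of Tlr4 was 3.53% ± 0.399 and 4.43% ± 0.242, and that of Tlr7 was 8.87% ± 0.302 and 9.39% ± 0.150, while neither level passed the test (SD, n = 3). For these 6 shares the libraries of the groups did not overlap (exact permutation p = 0.1 for each). The share of Tlr6 was 1.36% ± 0.193 and 1.49% ± 0.0989, with overlapping libraries (SD, n = 3; exact permutation p = 0.3). The share of Tlr13 was 3.94% ± 0.0457 and 3.89% ± 0.136, with overlapping libraries (SD, n = 3; exact permutation p = 0.7). Tlr5 had 3 fragments in 1 PGAM5 KD library, and Tlr11 and Tlr12 were at 0 in all 6.

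**Figure D3:**
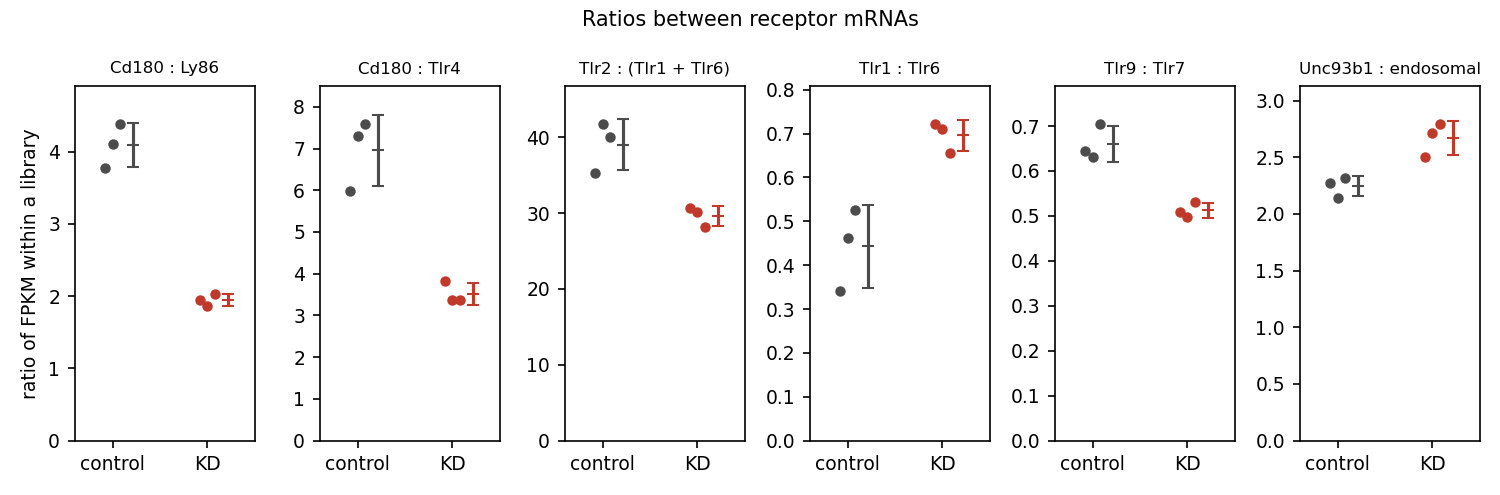
Ratios of FPKM between pairs of genes in each library, on axes that start at 0, with points for libraries and bars for the mean and SD of the 3 control (grey) and 3 PGAM5 KD (red) libraries; endosomal is the sum of Tlr3, Tlr7, Tlr8, Tlr9 and Tlr13. The mean of Cd180 over Ly86 is 4.09 in control and 1.95 in PGAM5 KD libraries, and the libraries of the groups do not overlap in any of the 6 panels.

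Promoter sequences from RefSeq (GRCm38.p6) were found for 8 of the 10 genes, and not for Tlr7 and Unc93b1. The bases before the start of the 3 genes that were lower in all fits, and of Tlr1, are shown with motif matches in capitals, up to 250 bases and ending where the first annotated exon begins. Cd180 (chr13:102693308-102693557, plus strand, the second of its listed starts) held none of the 5 motifs searched, Tlr9 (chr9:106222348-106222597, plus strand) an AP-1 site, Tlr2 (chr3:83841768-83841858, minus strand) a kappa B site and Tlr1 (chr5:64933564-64933808, minus strand) a PU.1 site.
Cd180: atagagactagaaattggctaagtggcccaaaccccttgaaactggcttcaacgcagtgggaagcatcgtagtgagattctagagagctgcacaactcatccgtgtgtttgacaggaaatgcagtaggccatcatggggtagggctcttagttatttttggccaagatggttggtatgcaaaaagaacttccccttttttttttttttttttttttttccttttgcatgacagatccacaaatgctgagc
Tlr9: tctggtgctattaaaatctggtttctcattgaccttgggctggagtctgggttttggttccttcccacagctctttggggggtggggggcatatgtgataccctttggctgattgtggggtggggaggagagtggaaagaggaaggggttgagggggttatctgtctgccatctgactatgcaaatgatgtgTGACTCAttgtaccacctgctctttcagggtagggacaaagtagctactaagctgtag
Tlr2: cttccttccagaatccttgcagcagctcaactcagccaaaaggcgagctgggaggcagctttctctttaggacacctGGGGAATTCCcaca
Tlr1: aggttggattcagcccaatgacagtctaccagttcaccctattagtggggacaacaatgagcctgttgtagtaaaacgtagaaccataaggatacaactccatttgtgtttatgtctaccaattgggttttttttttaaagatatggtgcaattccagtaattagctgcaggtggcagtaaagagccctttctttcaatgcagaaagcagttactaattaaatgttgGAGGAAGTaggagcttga
The motifs were searched on both strands in the 250 bases before each start, as TGANTCA (AP-1), GGG and TTCC with any 3 bases between them (kappa B), GAGGAAGT (PU.1), a pair of GAAA with any 2 bases between them (interferon-stimulated response element) and TTCNNNGAA (gamma-activated site). Of 32851 windows of all genes, 6.75%, 4.65%, 2.44%, 2.98% and 7.02% held them. The interferon-stimulated response element was found at 1 of the starts of Tlr6, which did not pass the test, and at no start of Tlr1 or Tlr3. A gamma-activated site was found at a start of Tlr1, outside the bases shown, and of Tlr8, and a kappa B site also at starts of Tlr3 and Tlr6. For Tlr3 and for 1 of the starts of Tlr1, no bases before the first annotated exon were left to show. A match or its absence there may therefore concern transcribed bases. A match is a description of letters, and these windows hold no measure of binding.

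The proteins that fold, carry and cut the receptors were examined as lists. Of 15 genes for folding, trafficking and co-receptors, all tested, 5 were higher and 2 lower, with a median log2 fold change of 0.07, where 16.8% of all genes tested were higher and 14.9% lower. The chaperones needed to fold most Toll-like receptors did not pass the test: Hsp90b1 (gp96) was at 268 ± 5.92 FPKM in control and 277 ± 3.11 in PGAM5 KD cells, and its helper Cnpy3 at 17.9 ± 1.44 and 16.4 ± 0.311 (SD, n = 3; adjusted p = 0.227 and 0.19 from limma). With TPM, Cnpy3 passed at a log2 fold change of -0.20 and an adjusted p-value of 0.0484. Slc15a3, a lysosomal peptide and histidine transporter, rose from 11.98 ± 0.276 to 24.2 ± 0.984 FPKM (SD, n = 3), a log2 fold change of 0.96 (SE 0.05, adjusted p = 2.54e-05 from limma). Its relative Slc15a4, required for endosomal receptor signaling, was at 6.67 ± 0.655 and 6.11 ± 0.491 FPKM (SD, n = 3) and did not pass (adjusted p = 0.372 from limma). The gene 5430427O19Rik, mouse Tasl, whose product joins Slc15a4 to Irf5, rose by 0.75 on the log2 scale (SE 0.11, adjusted p = 0.00274 from limma).

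Cd14, the co-receptor that delivers ligands to Tlr4 and several of the other receptors, rose from 461.2 ± 7.58 to 682.7 ± 13.4 FPKM (SD, n = 3), a log2 fold change of 0.56 (SE 0.03, adjusted p = 2.68e-05 from limma). Rab7b, a small GTPase of late endosomes, and Ap3d1, a subunit of the AP-3 adaptor that sorts endosomal cargo, were lower, with log2 fold changes of -0.53 (SE 0.07) and -0.40 (SE 0.06) and adjusted p-values of 0.00236 and 0.00373 from limma.

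Of 10 endosomal proteases and nucleases, 8 were tested, 2 were higher and 3 lower, with a median of -0.08 (all genes: 16.8% higher, 14.9% lower). The cathepsins, which cut the ectodomains of endosomal receptors, moved in different directions. Ctsl rose from 31.1 ± 0.887 to 44.6 ± 1.39 FPKM and Ctsk from 126.2 ± 1.24 to 139.7 ± 2.06, whereas Ctsb fell from 395 ± 4.04 to 299 ± 4.92 FPKM and Ctss from 244 ± 4.99 to 224 ± 7.24 (SD, n = 3). The log2 fold changes were 0.51, 0.14, -0.40 and -0.13 (adjusted p = 0.000198, 0.00818, 9.44e-05 and 0.0295 from limma). Ctsk lost its call with TPM (0.106) and quantile normalization (0.142), and Ctss without control replicate 2 or 3 or PGAM5 KD replicate 1 or 2 (0.0625 to 0.0904) and with no mean-variance trend (0.0864). Dnase2a, the lysosomal DNase that digests DNA before Tlr9 meets it, was lower at 71.5% of control (log2 fold change -0.45, SE 0.07, adjusted p = 0.00461 from limma). The RNase genes Rnaset2a and Rnaset2b, near-identical copies that fragments may not tell apart, had at most 6 fragments in any library.

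The list of 25 adaptors and kinases also holds the transcription factors Irf5 and Irf7. Of these 25 genes, 23 were tested, 4 (Irf5 and Irf7 among them) were higher and 3 lower, with a median of -0.04. These counts are near the 16.8% higher and 14.9% lower of all genes and set the list apart in no way. Myd88, the adaptor of the Toll-like receptors here other than Tlr3, was at 41.4 ± 2.47 and 44.1 ± 2.42 FPKM (SD, n = 3; adjusted p = 0.291 from limma), a gene named after its values were seen. Ticam1 (TRIF), the adaptor of Tlr3, had a log2 fold change of 0.25 (SE 0.06, adjusted p = 0.0239 from limma), a call lost with TPM (0.0701) and without control replicate 2 or 3 or PGAM5 KD replicate 1 or 3 (0.0517 to 0.0789). Of the transcription factors Irf5 and Irf7, which act downstream of endosomal receptors, Irf7 rose from 15.2 ± 0.698 to 48.1 ± 2.05 and Irf5 from 54.5 ± 2.68 to 72.8 ± 1.85 FPKM (SD, n = 3; log2 fold changes 1.60 and 0.41, adjusted p = 7.42e-06 and 0.000729 from limma). Irak3, a kinase homolog that restrains signaling, had a log2 fold change of 0.94 (SE 0.07), and Irak2, which sustains it, one of -0.32 (SE 0.05), with adjusted p-values of 0.000151 and 0.00543 from limma.

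**Figure D4:**
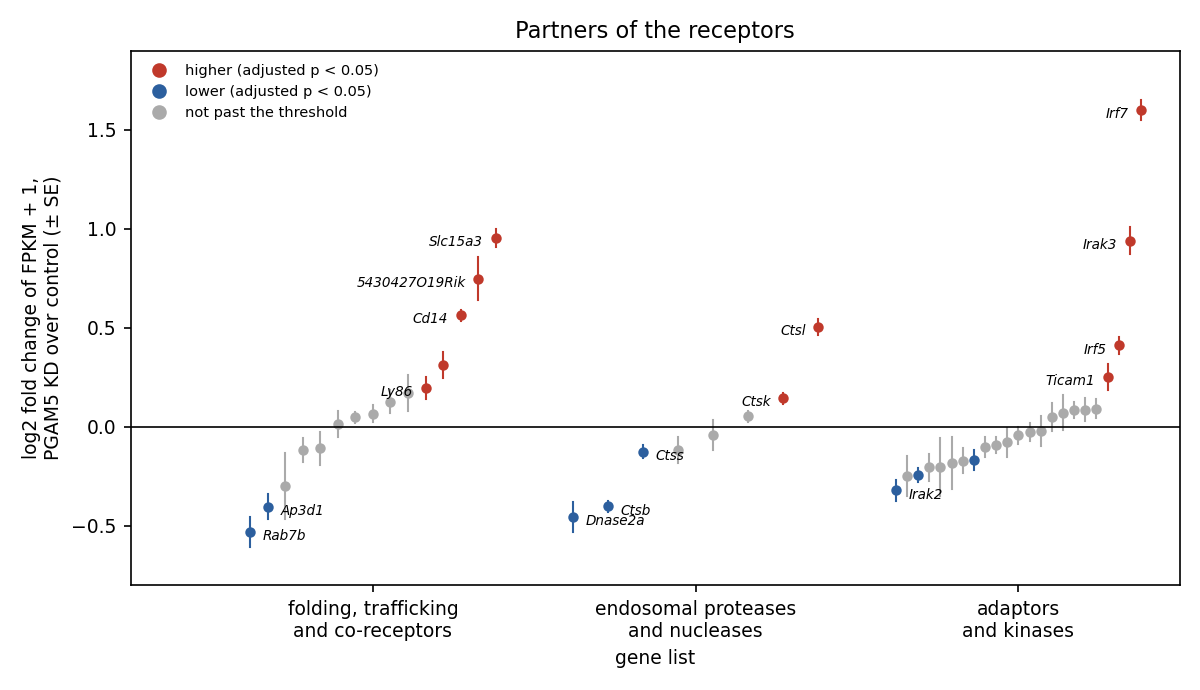
Log2 fold change with its standard error (y axis, PGAM5 KD over control, FPKM + 1) of every tested gene of the lists of folding and trafficking, endosomal proteases and nucleases, and adaptors and kinases, sorted within a list. Most genes lie near 0, while Irf7 (1.60), Slc15a3 (0.96) and Irak3 (0.94) lie highest and Rab7b (-0.53) lowest.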

How the data were processed

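RNA-seq was analysed in 6 libraries of LPS-treated iBMDMs, 3 control and 3 PGAM5 KD, grouped by their titles. The authors deposited FPKM, 1 table per library, which are scaled by depth and exon length only. The submitters' processing notes name HISAT2 2.0.5, featureCounts 1.5.0-p3 and mm10, while the annotation and the strand setting are not given in the sources used here, so overlapping genes are uncertain. Of the deposited identifiers, 54495 matched GENCODE M21 (GRCm38), which gave symbols, coordinates and exon lengths, and 37 did not. FPKM multiplied by exon length fell within 0.01 of a whole number of fragments for 96.8% to 97.1% of values under 1000 fragments, which gave the depth and the fragments per gene.

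Genes averaging at least 1 FPKM over all libraries (10540) were tested on log2(FPKM + 1) by limma 3.58.1 (R 4.3.3), using moderated two-sided tests that allow for a trend of variance with level and Benjamini-Hochberg adjustment across the table. A fold change on this scale understates that of low genes. Shares and ratios were compared by exact two-sided permutation. Sequences were compared with blastn 2.17.0, and figures drawn with matplotlib 3.10.9. Alternatives were another constant, other filters, TPM, quantile normalization, median centring, no trend, weighting of libraries, blocking on replicate number, fits without 1 library, Tlr1 and Tlr6 summed, and voom on recovered fragments (its minimum of 30 fragments was chosen after seeing the data). Named genes are the 10 members, Pgam5, the other Toll-like receptors, 4 partners, at most 5 called genes per list by size, overlapping or similar genes, and markers. Others are marked. The members and lists were chosen with earlier results of these data known.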

Additional observations from a re-analysis of the deposited data

How the results depend on the processing

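Tlr2, Cd180 and Tlr9 kept their direction and their call in all 17 alternative fits each. The count of members called higher was 1, and 0 with a mean of at least 5 FPKM (Tlr1 then untested), TPM and the replicate block. With no filter, and with voom at 30 fragments or more (Tlr1 adjusted p = 0.0551 from limma), the 1 was Tlr3 in place of Tlr1. The count called lower was 4, and 5 with TPM and quantile normalization (Tlr7 added) and 3 with no filter and with the replicate block (Tlr13 lost). Leaving out 1 library gave 0 to 1 higher and 3 to 4 lower, and over all genes tested 1211 to 1497 genes higher and 1129 to 1361 lower, against 1771 and 1575 (1088 higher and 2282 lower with TPM). The surface median of -0.14 was -0.53 with a mean of at least 5 FPKM, -0.22 with TPM and -0.18 with quantile normalization, and from -0.157 to -0.119 without 1 library. The endosomal median of -0.20 was -0.30 with TPM and from -0.233 to -0.184 without 1 library. This median covers only Tlr7, Tlr9 and Tlr13 in every fit, also in those where Tlr3 was tested and called higher, so it does not show what including Tlr3 would do. The libraries of 13 of the 15 shares and ratios did not overlap, and of 13 to 14 without 1 library, where non-overlap is easier to reach. The 15 are not separate results, since they share genes and a common sum, and some were chosen after the values were seen. No such count was made for ratios of other genes, while 47.1% of single genes tested did not overlap. Tlr6 reached from -0.092 to 0.018 and Unc93b1 from -0.013 to 0.042 without 1 library, and Unc93b1 was -0.064 with TPM and -0.061 with quantile normalization. Hsp90b1 (0.05) was -0.029 with TPM and -0.058 with quantile normalization. TPM divides each value by the summed FPKM of its library. This sum was 304393 to 304889 in control and 317936 to 324298 in PGAM5 KD libraries, so TPM lowers PGAM5 KD values relative to control. Why the sums differ, and the causes of the other shifts, were not tested.

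Same-numbered libraries did not deviate together over all genes tested (correlations from -0.052 to 0.016). This cannot exclude shared handling that acts on some genes, and the labels do not say what the numbers mean. With the replicate block, 1440 genes were higher and 1212 lower, and Tlr1 (0.35, adjusted p = 0.0885) and Tlr13 (-0.20, adjusted p = 0.073 from limma) lost their calls. With no filter on low values, Tlr1 (0.073), Tlr13 (0.0502), Ly86 (0.0635), Ctss (0.0713) and Ticam1 (0.0533) lost theirs as adjusted p-values from limma. Tlr3 differed by 0.38 on the log2(FPKM + 1) scale, by 0.98 with a constant of 0.1 and by 0.66 with TPM. Depth limits Tlr1, Tlr3 and Tlr8, which had at most 142, 85 and 3 fragments.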
